A study of Mus musculus with 2 samples.

Results

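The B7 family costimulatory ligands are cell-surface proteins by which an antigen-presenting cell tells a T cell how to read the antigen it shows. The 6 members followed here, Cd80, Cd86, Icosl, Cd274, Pdcd1lg2 and Cd276, were chosen by gene symbol, and each symbol matched 1 row of the 31053 genes in both count matrices. CD80 and CD86 bind the activating receptor CD28 and the inhibitory receptor CTLA-4, ICOSL binds ICOS, and PD-L1 (encoded by Cd274) and PD-L2 (encoded by Pdcd1lg2) bind PD-1, while CD276, also called B7-H3, has no settled receptor. In the thymic medulla, CD80 and CD86 on medullary thymic epithelial cells (mTECs) and dendritic cells take part in the deletion of self-reactive thymocytes and in the making of regulatory T cells, and high CD80 is a usual mark of mature mTECs, many of which express Aire, the regulator that lets mTECs transcribe tissue-restricted genes.

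The study sorted EPCAM+Ly51- mTECs from mouse thymus and sequenced 1 library per genotype with a droplet kit that reads the 3' end of transcripts and counts molecules by unique molecular identifiers (UMIs). One library is labelled Foxn1-Cre(+) Ikarosfl/fl and the other Foxn1-Cre(+) Ikaros+/fl, so both carry Foxn1-Cre and at least 1 floxed allele of Ikaros, a zinc-finger transcription factor encoded by Ikzf1, and the second is the control. Foxn1-driven Cre acts in thymic epithelium, so dendritic cells in the sort are not the cells in which the allele is meant to be deleted. The labels give no age and do not say how many mice went into each library, and the question the series states is how expression differs between mice with the conditional deletion and controls.

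The submitters' matrix names and their sample labels disagree on which library has which genotype. The labels are followed here, the libraries are called the fl/fl-labelled and the +/fl-labelled library, and every direction below holds between the libraries as labelled. Ikzf1 stood at 37.5 CPM (the UMIs of a gene per 1000000 UMIs) in the fl/fl-labelled library and 64.6 CPM in the +/fl-labelled library, but the exons removed are not stated in the labels, and a 3' tag cannot settle which library carries the deletion. Xist stood at 0.937 and 1318 CPM and the Y-linked gene Ddx3y at 64.0 and 0 CPM in the same order, so the libraries also differ in sex, and genotype, sex and library cannot be told apart. Each genotype is represented by a single library, so differences have no replicate check, no test was made, and the 95% intervals given below (exact Poisson for CPM and ratios, exact Clopper-Pearson for shares) cover counting error only.

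The fl/fl-labelled library held 11095 barcodes and 99871505 UMIs, and the +/fl-labelled library held 7304 barcodes and 85260592 UMIs. After filters and removal of the highest doublet scores, 7669 and 4891 cells remained, with a median of 8204 and 10731 UMIs per cell. Deposited barcodes shared by both libraries numbered 25, of which 10 were among kept cells in both. Clusters were made without the 6 members and named by markers that hold none of them. The Aire-stage mTEC class held 1934 fl/fl-labelled cells (25.2% of that library) and 576 +/fl-labelled cells (11.8%), and its cells came from different clusters, since cluster 15 held 1894 and 40 of them and cluster 10 held 40 and 536. The tuft class held 803 and 1765 cells (10.5% and 36.1%), immature mTECs 1042 and 657, cycling cells 450 and 318, keratinocyte-like cells 671 and 124, microfold-like cells 241 and 39, neuroendocrine-like cells 254 and 24, dendritic cells 272 and 343, and T-lineage cells 107 and 75. In the dendritic cluster 12 of 13 markers besides Ptprc had a UMI in each library, summing to 4157 and 4137 CPM, with Cd209a at 0, while Epcam stood at 210 and 370 CPM in that cluster against 953 and 979 CPM in Aire-stage mTECs. All 7 Aire-stage markers also had a UMI there, summing to 2054 and 1927 CPM, against 5212 and 4553 CPM in Aire-stage mTECs. Their part in the levels of the dendritic cluster was not tested.

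In the mouse genome (GRCm38, GENCODE M21), Icosl lies at chr10:78069302-78083913 on the plus strand, and its start is 25.7 kb from that of Aire, which runs away from it on the minus strand. Cd274 (chr19:29367455-29388095, plus strand) and Pdcd1lg2 (chr19:29410919-29471161, plus strand) are neighbours whose starts are 43.5 kb apart. Cd80 (chr16:38455561-38496335, plus strand) and Cd86 (chr16:36603869-36666081, minus strand) share a chromosome at a distance of 1789 kb, and Cd276 is at chr9:58524298-58555437 on the minus strand. The longest coding transcript has 7 exons in Cd80, Icosl and Cd274, 8 in Cd86 and Cd276, and 5 in Pdcd1lg2. The build the authors aligned to is not given in the sources used here, and these positions serve only to place the genes.

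Promoters of 4 members are shown. Cd80 and Icosl were the members found more often with Aire in both libraries beyond counting error, and the neighbours Cd274 and Pdcd1lg2 went opposite ways between immature and Aire-stage mTECs. They run from 250 bases before to 50 bases after the RefSeq gene start in GRCm38.p6, 5′ to 3′ on the gene's strand, and 5 of the 6 members matched the RefSeq table, Cd86 being the exception. Capitals mark matches, on either strand, to GGGAA (the Ikaros core), GGGNNNNNCC (an NF-kB-like pattern), TTCNNNGAA (the interferon-gamma-activated site) or GAAANNGAAA (a pair of interferon response repeats). The Cd80 window is chr16:38458683-38458982, the Icosl window chr10:78069118-78069417, the Cd274 window chr19:29367188-29367487 and the Pdcd1lg2 window chr19:29410669-29410968, all on the plus strand. The Cd80 window lies inside the GENCODE gene, downstream of its start at chr16:38455561, as RefSeq and GENCODE place that start differently. Matches in it are therefore not matches at the GENCODE start.
Cd80: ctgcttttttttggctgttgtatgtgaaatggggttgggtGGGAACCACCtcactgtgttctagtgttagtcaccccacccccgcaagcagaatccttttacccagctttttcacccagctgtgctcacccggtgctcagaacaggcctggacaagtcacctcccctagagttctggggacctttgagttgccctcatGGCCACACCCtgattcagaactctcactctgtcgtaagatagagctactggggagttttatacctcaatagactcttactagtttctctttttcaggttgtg
Icosl: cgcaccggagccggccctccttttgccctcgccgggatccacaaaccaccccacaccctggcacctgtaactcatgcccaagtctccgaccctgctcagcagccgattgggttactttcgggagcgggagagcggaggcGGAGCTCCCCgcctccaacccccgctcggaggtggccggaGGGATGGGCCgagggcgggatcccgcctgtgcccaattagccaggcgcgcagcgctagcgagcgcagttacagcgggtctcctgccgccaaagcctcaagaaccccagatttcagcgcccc
Cd274: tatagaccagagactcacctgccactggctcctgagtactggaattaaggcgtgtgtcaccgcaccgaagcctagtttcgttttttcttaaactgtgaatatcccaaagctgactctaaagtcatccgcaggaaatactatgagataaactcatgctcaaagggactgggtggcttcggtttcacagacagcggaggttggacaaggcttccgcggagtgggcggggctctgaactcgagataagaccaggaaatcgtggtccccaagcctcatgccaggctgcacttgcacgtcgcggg
Pdcd1lg2: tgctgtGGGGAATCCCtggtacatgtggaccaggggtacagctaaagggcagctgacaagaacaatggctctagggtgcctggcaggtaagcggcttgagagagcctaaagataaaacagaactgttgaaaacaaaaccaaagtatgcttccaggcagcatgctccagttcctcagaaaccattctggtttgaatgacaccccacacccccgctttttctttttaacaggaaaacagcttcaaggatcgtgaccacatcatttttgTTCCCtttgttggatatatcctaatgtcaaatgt

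The Cd80 window held 1 GGGAA inside the first of 2 GGGNNNNNCC matches. Pdcd1lg2 held 2 GGGAA matches, of which 1 lies inside a GGGNNNNNCC site that matches on both strands. Icosl held 2 GGGNNNNNCC matches and no GGGAA, and Cd274 held none of the 4 patterns. Neither interferon pattern occurred in any of the 5 windows searched. Among all 32851 promoters of the table, 62.7% held GGGAA, 50.8% GGGNNNNNCC, 8.3% TTCNNNGAA and 3.44% GAAANNGAAA, so the first 2 patterns are common in windows of this length. A match here is a run of letters and not a shown binding site.

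The CD28 and CTLA-4 ligands had unlike distributions among the cells. Cd80 was high in both dendritic cells and Aire-stage mTECs of each library. Cd86 was high in dendritic cells of each library. In Aire-stage mTECs of the fl/fl-labelled library it was well above the other named mTEC classes. In those of the +/fl-labelled library it was low (2.54 CPM, 1.68 to 3.66), though above immature, tuft and cycling mTECs. There it overlapped keratinocyte-like mTECs and T-lineage cells. Cd80 in dendritic cells stood at 82.2 CPM (70.1 to 95.9) in the fl/fl-labelled library and 66.7 CPM (59.0 to 75.1) in the +/fl-labelled library. In Aire-stage mTECs it stood at 66.1 CPM (63.1 to 69.1) and 37.0 CPM (33.5 to 40.8). Dendritic cells thus ranked above Aire-stage mTECs in both libraries with intervals that did not overlap. Among the unnamed clusters of the fl/fl-labelled library, cluster 9 gave 76.2 CPM (70.7 to 82.0) and cluster 2 gave 66.2 CPM (52.1 to 83.0), both overlapping the dendritic level, and in the +/fl-labelled library they gave 57.1 CPM (40.0 to 79.1) and 13.6 CPM (5.86 to 26.7). In the order of the named classes, microfold-like mTECs, which resemble the antigen-sampling cells of gut epithelium, came next at 47.4 CPM (39.5 to 56.3) in the fl/fl-labelled library, while in the +/fl-labelled library their 44.5 CPM (28.5 to 66.3), from 39 cells, overlapped both neighbours in the order. Cycling mTECs gave 34.9 and 20.1 CPM and keratinocyte-like mTECs 29.6 and 26.0 CPM, and these 2 classes overlapped in both libraries. Immature mTECs, at 4.99 CPM (3.50 to 6.91) and 2.60 CPM (1.57 to 4.06), and tuft mTECs, at 6.62 and 3.85 CPM, were not separable from T-lineage cells, which should lack Cd80 and gave 6.67 CPM (1.38 to 19.5) and 1.48 CPM (0.0374 to 8.24).

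Cd86 stood at 136 CPM (120 to 153) in dendritic cells of the fl/fl-labelled library and 123 CPM (113 to 134) in those of the +/fl-labelled library. Aire-stage mTECs followed at 21.2 CPM (597 UMIs) and 2.54 CPM (28 UMIs). Keratinocyte-like, tuft, cycling and immature mTECs stayed between 0.832 and 5.60 CPM in the fl/fl-labelled library and between 0.368 and 1.28 CPM in the +/fl-labelled library, against 4.45 CPM (0.539 to 16.1) and 1.48 CPM (0.0374 to 8.24) in T-lineage cells. The unnamed cluster 9, which held 970 and 64 cells, had all 7 Aire-stage markers raised but was led by genes of enterocytes and kallikreins, gave 58.6 CPM (549 UMIs) in the fl/fl-labelled library and 4.76 CPM (3 UMIs) in the +/fl-labelled library. Together cluster 9 and the Aire-stage class held most of the 1258 Cd86 UMIs that the epithelial clusters of the fl/fl-labelled library contained, against 59 UMIs in the epithelial clusters of the +/fl-labelled library. Dendritic markers were also found in the Aire-stage class, where they summed to 1014 CPM (13 of 13 with a UMI) and 661 CPM (12 of 13, Cd209a at 0), and their part in the Cd86 level was not tested.

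Shares of cells carrying a Cd86 UMI were read after each cell was thinned to 2000 UMIs, and dendritic cells again came first in both libraries. Cd86 was detected in 25.1% (19.4 to 31.5) of 211 fl/fl-labelled dendritic cells and in 22.8% (18.1 to 28.1) of 285 +/fl-labelled ones, or 43.0% and 51.9% without thinning. In Aire-stage mTECs it was detected in 3.65% (2.82 to 4.64) of 1753 cells and in 0.202% (0.00510 to 1.12), 1 of 496 cells, or 13.6% and 3.13% without thinning. T-lineage cells gave 0 of 92 cells, which allows a share of up to 3.26% (3 counts of the total), and 1 of 66 cells (1.52%), so the Aire-stage share of the +/fl-labelled library was at background. In the other named classes the shares rested on 0 to 4 cells each and did not keep the order of the CPM, so no order is read from them. Cd80 was detected in 12.9% (11.4 to 14.6) and 6.65% (4.62 to 9.22) of thinned Aire-stage mTECs, 47.1% and 37.8% without thinning, and in 1.09% of 92 and 0 of 66 thinned T-lineage cells, the last allowing up to 4.55% by the same limit. The median depth was 12737 and 17084.5 UMIs in Aire-stage mTECs, 6694.5 and 9907 in dendritic cells, and 3161 and 4107 in T-lineage cells.

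**Figure D1:**
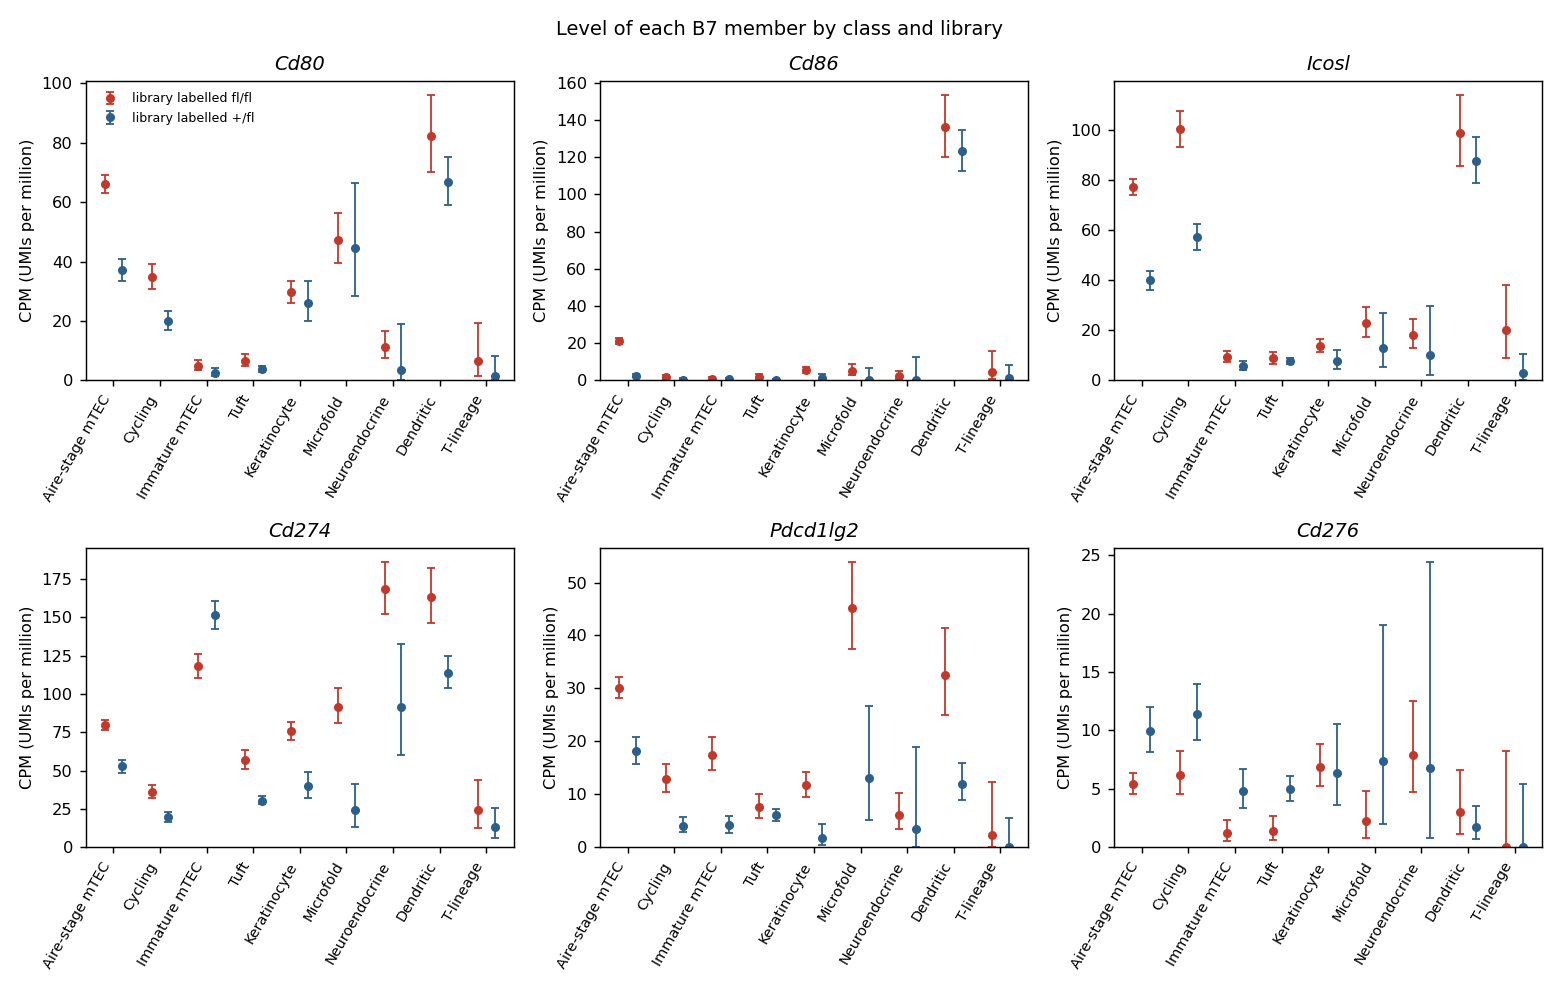
Level of the 6 members (CPM, vertical axes from 0, each panel with its own scale) in 9 classes, with the fl/fl-labelled library in red to the left and the +/fl-labelled library in blue to the right, bars being exact 95% Poisson intervals. Cd86 is high in dendritic cells (136 and 123 CPM), Icosl peaks in cycling, dendritic and Aire-stage cells, and Cd274 is high in immature mTECs (118 and 151 CPM), where Cd80 is near its T-lineage level.

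Icosl, the ligand of ICOS, was highest in cycling, dendritic and Aire-stage cells. Cycling mTECs, which include the dividing precursors of the Aire-expressing stage, gave 100 CPM (93.3 to 108) in the fl/fl-labelled library and 57.1 CPM (52.0 to 62.5) in the +/fl-labelled library. Dendritic cells gave 99.0 CPM (85.6 to 114) and 87.5 CPM (78.7 to 97.1), and Aire-stage mTECs 77.1 CPM (73.9 to 80.4) and 39.9 CPM (36.3 to 43.8). Cycling and dendritic cells overlapped at the top of the fl/fl-labelled library, whereas in the +/fl-labelled library dendritic cells came first and cycling cells second without overlap. Immature mTECs, at 9.29 and 5.88 CPM, and tuft mTECs, at 8.83 and 7.71 CPM, overlapped the T-lineage intervals of 20 CPM (9.15 to 38.0) and 2.96 CPM (0.358 to 10.7). Thinned shares for Icosl in Aire-stage mTECs were 13.7% and 7.06% (49.7% and 40.1% without thinning), against 3.26% and 0% in T-lineage cells.

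The PD-1 ligands did not follow the Aire-stage pattern in the same way. Cd274 was widespread and stood higher in immature mTECs, the compartment marked by Ccl21a and Krt5, than in Aire-stage mTECs of either library. Immature mTECs gave 118 CPM (110 to 126) in the fl/fl-labelled library and 151 CPM (143 to 161) in the +/fl-labelled library, and Aire-stage mTECs gave 79.9 CPM (76.7 to 83.3) and 52.7 CPM (48.5 to 57.2). Dendritic cells stood at 163 CPM (146 to 182) and 114 CPM (104 to 124). Neuroendocrine-like mTECs reached 169 CPM (152 to 186) in the fl/fl-labelled library, level with dendritic cells within counting error, and 91.3 CPM (60.2 to 133) from 24 cells of the +/fl-labelled library. Tuft mTECs gave 57.1 and 30.4 CPM and cycling mTECs 36.2 and 19.6 CPM, while T-lineage cells gave 24.5 CPM (12.2 to 43.8) and 13.3 CPM (6.08 to 25.3), which cycling cells overlapped in both libraries. Thinned immature mTECs carried a Cd274 UMI in 17.7% (15.4 to 20.2) and 21.1% (18.0 to 24.5) of cells, 39.3% and 52.8% without thinning, against 4.35% and 3.03% of thinned T-lineage cells. Immature mTECs had a median of 6609.5 and 10554 UMIs.

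Pdcd1lg2 was highest elsewhere. In the fl/fl-labelled library the unnamed cluster 9 gave 66.2 CPM (61.1 to 71.6), microfold-like mTECs 45.2 CPM (37.5 to 53.9), dendritic cells 32.5 CPM (25.0 to 41.5) and Aire-stage mTECs 30.1 CPM (28.1 to 32.2). In the +/fl-labelled library cluster 9 gave 31.7 CPM (20 UMIs), Aire-stage mTECs 18.2 CPM (15.8 to 20.9), microfold-like mTECs 13.0 CPM (7 UMIs) and dendritic cells 12 CPM (8.86 to 15.8). Immature mTECs, where its neighbour Cd274 was high, gave 17.5 CPM (14.6 to 20.8) and 4.11 CPM (2.77 to 5.86), and tuft mTECs 7.57 and 6.0 CPM. T-lineage cells had 1 UMI of Pdcd1lg2 in the fl/fl-labelled library and none in the +/fl-labelled one.

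Cd276 was sparse throughout, with 378 and 467 UMIs in all kept cells. Cycling mTECs gave 6.19 CPM (4.54 to 8.22) in the fl/fl-labelled library and 11.4 CPM (9.20 to 14.0) in the +/fl-labelled library, and Aire-stage mTECs 5.40 and 9.96 CPM. Dendritic cells gave 3.05 CPM (6 UMIs) and 1.71 CPM (7 UMIs), and T-lineage cells had no Cd276 UMI in either library. Cd276 was the one member with a higher CPM in epithelial clusters, 4.73 CPM (4.26 to 5.24) and 7.48 CPM (6.81 to 8.20), than in the dendritic cells of the same library, and in the fl/fl-labelled library these intervals overlapped. Its counts were too few to order most classes beyond counting error.

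Aire-stage mTECs were next set against immature mTECs within each library, the classes being named in part from Aire itself but from none of the 6 members. Members at least 2-fold higher in the Aire-stage class on the log2(CPM + 1) scale numbered 4 of 6 in the fl/fl-labelled library (Cd80, Cd86, Icosl and Cd276) and 3 of the 5 measured in the +/fl-labelled library (Cd80, Icosl and Pdcd1lg2, Cd86 being under the minimum of 50 UMIs), where 32.8% of 15937 genes in the fl/fl-labelled library and 22.3% of 12635 genes in the +/fl-labelled library did the same. Cd80 was 13.2-fold higher (9.53 to 19.0) in the fl/fl-labelled library and 14.2-fold higher (9.0 to 23.9) in the +/fl-labelled library, and Icosl 8.30-fold (6.51 to 10.8) and 6.79-fold (4.95 to 9.51). The immature levels of these members were near background, so the folds are approximate. Cd80, Cd86 and Cd276 in the fl/fl-labelled library (36, 6 and 9 immature UMIs) met the minimum of 50 UMIs only through the Aire-stage class. So did Cd80, Icosl and Pdcd1lg2 in the +/fl-labelled library (19, 43 and 30 immature UMIs), and the counts of members above rest on this. Cd86 was 25.5-fold higher (11.6 to 69.7) and 4.63-fold higher (1.62 to 18.2), on 6 and 4 immature UMIs. Pdcd1lg2 was 1.72-fold higher (1.43 to 2.10) and 4.43-fold higher (3.01 to 6.74), and Cd276 4.33-fold (2.22 to 9.64) and 2.08-fold (1.41 to 3.14). Cd274 was the exception, with 0.677 times (0.626 to 0.734) and 0.348 times (0.314 to 0.385) the immature level. It passed 2-fold lower in the +/fl-labelled library, beside 11.2% of genes, and no member did in the fl/fl-labelled library, beside 10.7%. In the list of other costimulatory and coinhibitory genes, 4 of 9 measured were at least 2-fold higher and 2 lower in the Aire-stage class of the fl/fl-labelled library, and 3 of 7 higher and 2 lower in that of the +/fl-labelled library. Among the higher was Cd40, the receptor for CD40 ligand on T cells, at 189 against 23.6 CPM in the fl/fl-labelled and 171 against 21.5 CPM in the +/fl-labelled library, and Cd70 at 96.9 against 3.88 CPM and 58.8 against 2.60 CPM. The lower ones in both libraries were Lgals9, which encodes galectin-9, at 29.0 against 169 CPM and 21.3 against 132 CPM, and Pvr, at 4.62 against 13.0 CPM and 3.71 against 11.2 CPM. Cd70, Tnfsf9 and Cd48 in the fl/fl-labelled library (28, 42 and 5 immature UMIs) met the minimum of 50 UMIs only through the Aire-stage class. So did Cd70 and Tnfsf9 in the +/fl-labelled library (19 and 26 immature UMIs). Pvr met it there only through the immature class (41 Aire-stage UMIs). The counts of listed genes rest on this.

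Co-detection with Aire was read in the epithelial clusters after thinning every cell to 2000 UMIs, where 2009 fl/fl-labelled cells carried an Aire UMI and 4504 did not, and 718 and 3408 in the +/fl-labelled library. Cd80 and Icosl were found more often in cells with Aire. Cd80 was detected in 11.8% (10.4 to 13.3) of cells with Aire and 5.66% (5.0 to 6.38) of cells without it in the fl/fl-labelled library, and in 4.46% (3.07 to 6.23) and 1.73% in the +/fl-labelled library. Icosl was detected in 13.0% (11.6 to 14.5) of cells with Aire and 5.04% (4.42 to 5.72) of cells without it in the fl/fl-labelled library, and in 6.82% (5.09 to 8.92) and 2.70% in the +/fl-labelled library. These 2 genes had intervals that did not overlap in either library. Cd274 went the other way in both libraries with overlapping intervals, at 13.9% with Aire and 15.5% without it in the fl/fl-labelled library, and at 7.80% and 10.0% in the +/fl-labelled library. Without thinning, when cells with Aire were also the deeper ones, the Cd274 share was 13.9 and 10.0 percentage points higher in cells with Aire. Pdcd1lg2 differed less, at 5.08% with Aire against 3.82% without it, and 1.53% against 1.20%.

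Cd86 was detected in 3.14% of cells with Aire and 1.58% of cells without it in the fl/fl-labelled library, while in the +/fl-labelled library only 3 cells with Aire and 4 without it carried a Cd86 UMI. Cd276 gave 0.299% with Aire and 0.777% without it in the fl/fl-labelled library, and 2.51% and 1.12% in the +/fl-labelled library, so its direction differed between the libraries, and in the fl/fl-labelled library it turned when cells were not thinned. Members detected more often with Aire were 4 of 6 in the fl/fl-labelled library, beside 47.9% of 17454 genes, and 5 of 6 in the +/fl-labelled library, beside 46% of 15226 genes. Intervals were apart for 3 of 6 (Cd80, Cd86 and Icosl), beside 10.9% of genes, and for 2 of 6 (Cd80 and Icosl), beside 7.85%. At other thinning depths the first count reached 5 and, without thinning, 6 in the fl/fl-labelled library, and 6 without thinning in the +/fl-labelled library. Cells with Aire were deeper before thinning, with medians of 11576 and 8718 UMIs with and without Aire in the fl/fl-labelled library and 16410.5 and 11269.5 in the +/fl-labelled library. Aire itself was also detected in 20.7% and 4.55% of thinned T-lineage cells, and the part of free RNA in these shares was not tested. Seen from the members, 48.2% and 35.2% of thinned Cd80 cells also carried Aire, as did 53.5% and 34.8% of Icosl cells but 28.7% and 14.1% of Cd274 cells, in the fl/fl-labelled and the +/fl-labelled library.

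**Figure D2:**
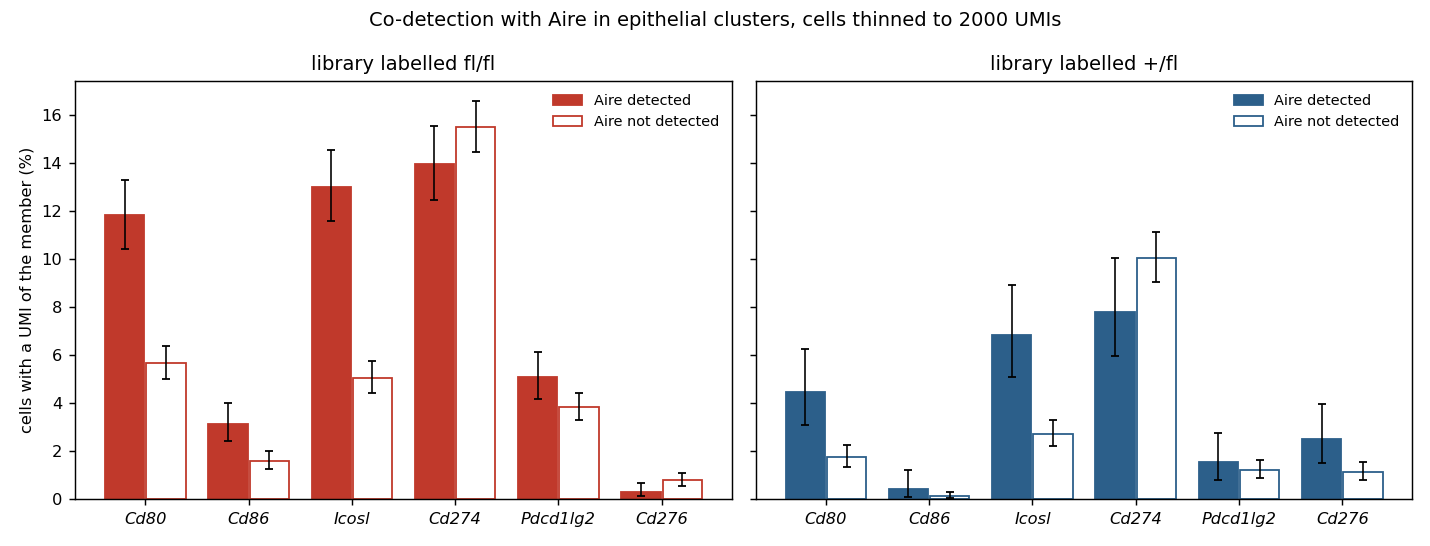
Share of epithelial cells with a UMI of each member (percent, cells thinned to 2000 UMIs) where Aire was detected (filled) and where it was not (open), with the fl/fl-labelled library on the left and the +/fl-labelled library on the right; bars are exact 95% intervals. Cd80 (11.8% against 5.66%, and 4.46% against 1.73%) and Icosl are higher in cells with Aire in both libraries, and Cd274 is not.

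Within the Aire-stage class, median depth was 13805 UMIs with Aire and 13875 without it in the fl/fl-labelled library, and 22866 and 17770 in the +/fl-labelled library. Cd80 stood at 72.2 CPM (68.2 to 76.4) with Aire and 57.0 CPM (52.6 to 61.6) without it in the fl/fl-labelled library. In the +/fl-labelled library its values of 40.1 CPM (34.9 to 45.7) and 33.7 CPM (29.0 to 38.9) overlapped. Icosl stood at 88.9 CPM (84.5 to 93.5) with Aire and 60 CPM (55.5 to 64.7) without it in the fl/fl-labelled library, and at 46.9 CPM (41.4 to 53.0) and 33.1 CPM (28.4 to 38.3) in the +/fl-labelled library, apart in both. Cd274 levels overlapped in the fl/fl-labelled library, at 77.1 CPM (73.0 to 81.4) with Aire and 85.0 CPM (79.7 to 90.7) without it, and in the +/fl-labelled library stood at 43.7 CPM (38.3 to 49.6) and 61.4 CPM (55.0 to 68.4). The thinned Cd274 share of the +/fl-labelled library went the other way, at 9.62% with Aire and 7.0% without it, with overlapping intervals. In dendritic cells Aire was detected in 22.3% and 18.9% of thinned cells, and Cd86 was not higher in those with Aire, at 109 against 148 CPM in the fl/fl-labelled library and 87.3 against 137 CPM in the +/fl-labelled library.

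Graded by the number of Aire UMIs in a thinned epithelial cell (0, 1, or 2 or more), Cd80 and Icosl increased step by step in both libraries. Cd80 stood at 34.5, 52.1 and 72.5 CPM in the fl/fl-labelled library and at 10.4, 24.1 and 35.7 CPM in the +/fl-labelled library. Icosl stood at 31.7, 60.5 and 105 CPM, and at 16.0, 41.0 and 54.1 CPM. Cd274 ran the other way, at 89.6, 78.1 and 77.1 CPM and at 58.4, 42.1 and 32.4 CPM. At each number of Aire UMIs all members but Cd276 stood higher in the fl/fl-labelled library. Cd86, for example, stood at 20.6 CPM in fl/fl-labelled cells with 2 or more Aire UMIs and 2.02 CPM in +/fl-labelled ones, and Pdcd1lg2 at 29.8 and 13.9 CPM. The share of Aire-stage cells in these bins was not the same, at 15.5%, 39.7% and 69.4% in the fl/fl-labelled library and 7.54%, 27.3% and 50.3% in the +/fl-labelled library.

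**Figure D3:**
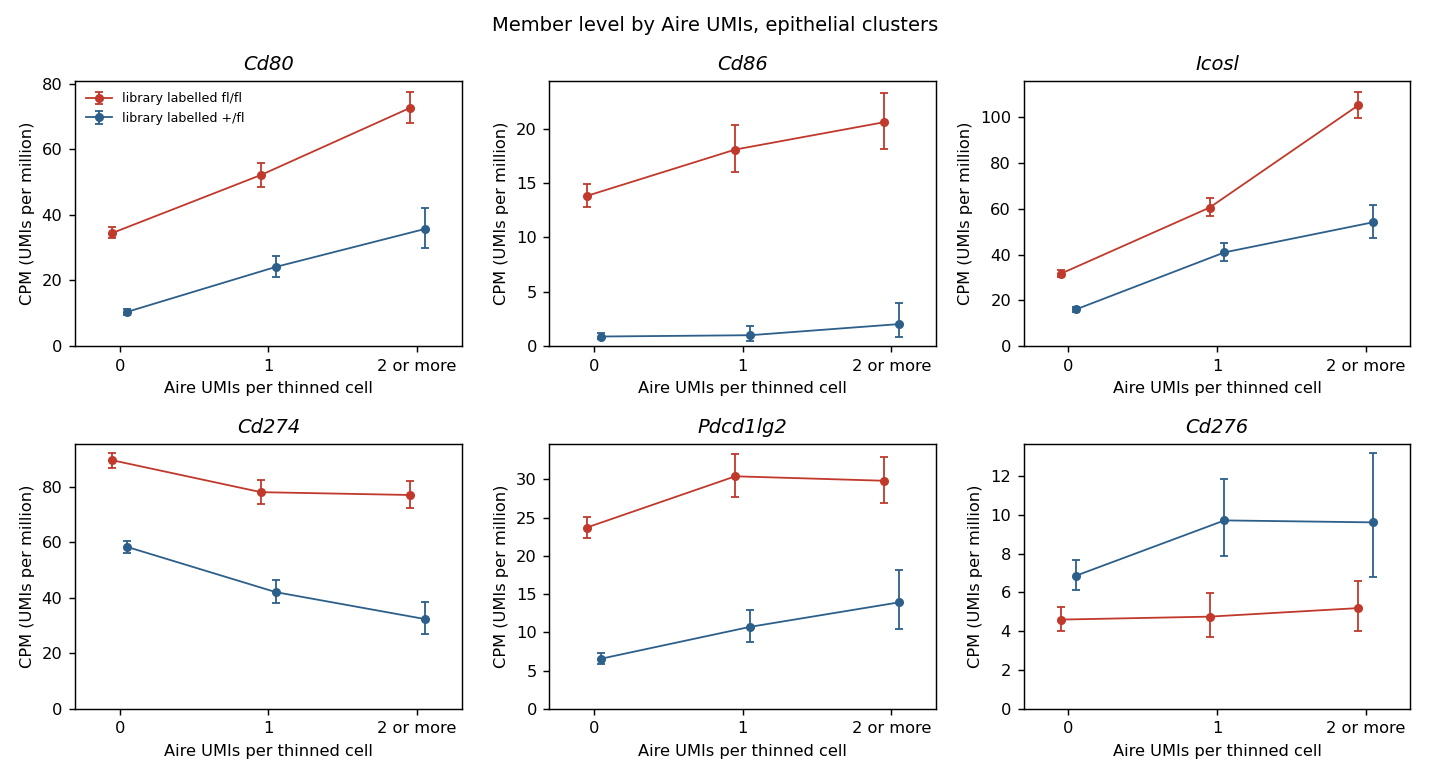
Level of each member (CPM, from 0) in epithelial cells with 0, 1, or 2 or more Aire UMIs after thinning, the fl/fl-labelled library in red and the +/fl-labelled library in blue, with exact 95% Poisson intervals. Cd80 and Icosl climb with Aire UMIs in both libraries (Icosl to 105 and 54.1 CPM), Cd274 falls off, and Cd276 is the one member with the blue points above the red.

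Few single cells carried a UMI of more than 1 member at this depth. Among thinned Aire-stage mTECs of the fl/fl-labelled library, 1043 of 1753 cells had none of the 6, 553 had 1, 136 had 2, 20 had 3 and 1 had 4. In the +/fl-labelled library 383 of 496 cells had none, 100 had 1, 13 had 2 and no cell had more. Cd80 with Cd274 was the commonest pair in the fl/fl-labelled library, in 46 cells (2.62%), and was found in 4 cells (0.806%) of the +/fl-labelled library. In fl/fl-labelled cells with Cd80, 20.4% also carried Cd274, against 13.9% of those without Cd80, and 15.9% carried Icosl, against 13.4%. Cd86 was in 11 cells together with Cd80 in the fl/fl-labelled library and in none in the +/fl-labelled library, where Cd86 was seen in 1 thinned cell.

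Between the libraries, 5 of the 6 members were higher in the fl/fl-labelled library over all kept cells, as were 53.7% of 18406 genes, and 3 of 6 (Cd80, Cd86 and Pdcd1lg2) were at least 2-fold higher, against 10.4% of those genes. Pdcd1lg2 stood at 25.9 CPM in the fl/fl-labelled library and 7.81 CPM in the +/fl-labelled library, a ratio of 3.32 (3.01 to 3.66). Cd80 stood at 44.8 and 17.3 CPM (ratio 2.59, 2.42 to 2.77) and Cd86 at 18.9 and 8.48 CPM (2.23, 2.02 to 2.46). Icosl, at 50.1 and 26.1 CPM (1.92, 1.81 to 2.03), and Cd274, at 86.7 and 57.0 CPM (1.52, 1.46 to 1.58), were higher by less, and Cd276, at 4.66 and 7.01 CPM, was lower in the fl/fl-labelled library (0.664, 0.578 to 0.762). The members' median log2 ratio was 0.99, beside 0.04 over all genes tested. Of the 1534 and 565 Cd86 UMIs in the fl/fl-labelled and the +/fl-labelled library, 268 and 504 lay in dendritic cells. In the epithelial clusters alone Cd86 stood at 16.1 and 0.970 CPM (1258 and 59 UMIs, ratio 16.6, 12.8 to 21.9). In a mixed population, more cells of a type and more RNA per cell cannot be told apart from such totals.

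These ratios were also computed with the cluster make-up held fixed. When the cluster levels of the fl/fl-labelled library were weighted by the cluster shares of the +/fl-labelled library, Cd80 came to 25.9 CPM instead of 44.8, Pdcd1lg2 to 14.0 instead of 25.9, and Cd86 to 12.7 instead of 18.9. The log2 ratios became 0.56 for Cd80, 0.53 for Cd86, 0.44 for Icosl, 0.36 for Cd274 and 0.77 for Pdcd1lg2, and 0 of 6 members then reached 2-fold. The Cd86 value takes in dendritic cells, which held most Cd86 UMIs of the +/fl-labelled library, and is not a value for mTECs. Cd276 had a log2 ratio of -0.65 in place of -0.50, and all 6 members kept their direction. Some clusters nearly separated the libraries, such as cluster 10 with 40 fl/fl-labelled and 536 +/fl-labelled cells. The weighted values thus rest in part on few cells. A difference in make-up and one in cell state cannot be told apart by this weighting.

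**Figure D4:**
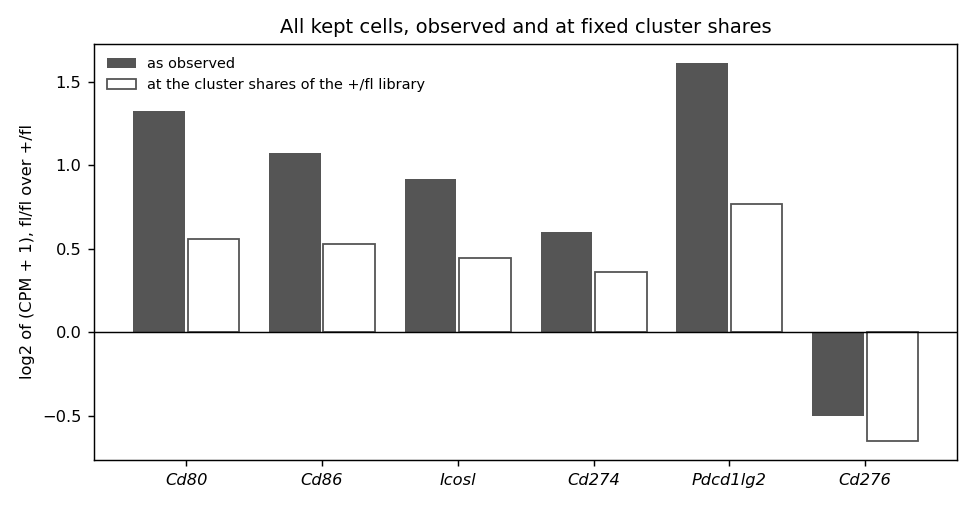
The log2 ratio of (CPM + 1), fl/fl-labelled over +/fl-labelled library, for the 6 members over all kept cells as observed (filled) and with the fl/fl-labelled clusters weighted by the cluster shares of the +/fl-labelled library (open). Pdcd1lg2 is at 1.61 as observed and 0.77 at fixed shares, Cd80 at 1.32 and 0.56, and Cd276 is below 0 in both.

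Within Aire-stage mTECs, 5 of 6 members were again higher in the fl/fl-labelled library, where 55.6% of 16099 genes were, but only Cd86 reached 2-fold, as did 14.4% of those genes. Cd86 had a ratio of 8.36 (5.73 to 12.7). Cd80 had a ratio of 1.78 (1.60 to 1.99), Icosl 1.93 (1.74 to 2.14), Cd274 1.52 (1.38 to 1.66) and Pdcd1lg2 1.65 (1.42 to 1.94), and Cd276 0.542 (0.421 to 0.699). Aire itself was at 606 and 387 CPM in this class. The count of members past 2-fold came to between 1 and 4 under other ways of defining the class.

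The libraries meet only thinly inside each of the 2 Aire-stage clusters, and there the directions were mixed. In cluster 10 (40 and 536 cells) Cd80 stood at 53.3 and 36.5 CPM, Icosl at 55.2 and 40.1 CPM and Cd86 at 13.3 and 2.07 CPM (7 and 22 UMIs, ratio 6.44, 2.32 to 15.6). In cluster 15 (1894 and 40 cells) Cd80 stood at 66.3 and 50.9 CPM, Icosl at 77.5 and 36.4 CPM and Cd86 at 21.3 and 14.5 CPM (590 and 6 UMIs, ratio 1.47, 0.670 to 4.02). Cd80, Icosl, Cd274 and Cd86 kept their direction in both clusters. Of these, only Cd86 in cluster 10 and Icosl in cluster 15 (ratio 2.13, 1.29 to 3.82) had intervals clear of equal levels. The intervals of Cd80 and Cd274 took in equal levels in both clusters. Pdcd1lg2 turned, at 13.3 and 16.7 CPM in cluster 10 and at 30.4 and 55.7 CPM in cluster 15 (ratio 0.546, 0.361 to 0.866). Cd276 was lower in the fl/fl-labelled library in cluster 10, at 7.61 and 10.3 CPM, but not in cluster 15, at 5.35 and 2.42 CPM, where the +/fl-labelled library had 1 UMI.

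**Figure D5:**
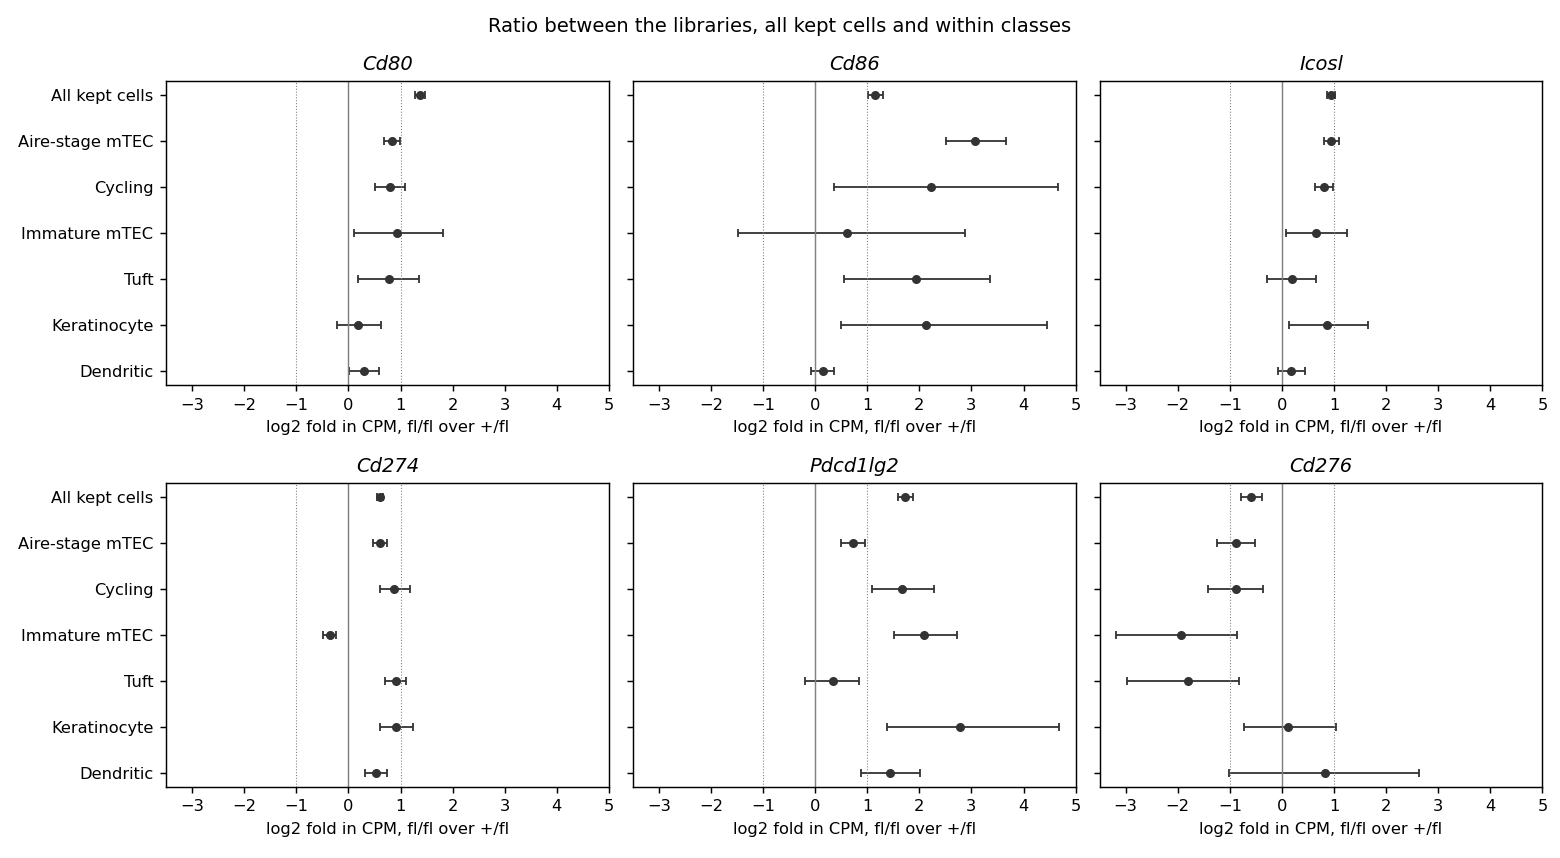
Ratio of the fl/fl-labelled over the +/fl-labelled library (log2 of the fold in CPM, 0 meaning equal levels and the dotted lines 2-fold) for each member over all kept cells and in 6 classes, with 95% counting intervals. Cd86 stands far to the right in Aire-stage mTECs (8.36-fold) and near 0 in dendritic cells (1.10-fold), Cd274 lies to the left in immature mTECs alone, and Cd276 lies to the left in Aire-stage, cycling, immature and tuft cells.

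In dendritic cells the ratios of Cd86 and Icosl had intervals that took in equal levels. Cd86 stood at 1.10 times (0.949 to 1.28) its +/fl-labelled level, Icosl at 1.13 times, and Cd80 at 1.23 times (1.01 to 1.5). Cd274 was higher by 1.44 times (1.24 to 1.66) and Pdcd1lg2 by 2.71 times (1.84 to 4.02, 64 and 49 UMIs). Pdcd1lg2 was the only 1 of 5 measured members past 2-fold, beside 1.31% of 8163 genes. With 49 UMIs in the +/fl-labelled library, Pdcd1lg2 met the UMI minimum there only through the fl/fl-labelled library. The dendritic cluster also held cells with B-lineage genes, whose 7 markers summed to 912 and 191 CPM. At a finer clustering that set 36 and 29 such cells apart, Pdcd1lg2 in the remaining dendritic cells stood at 32.7 and 11.8 CPM, and Cd86 at 139 and 122 CPM. A difference between dendritic cells and mTECs in these ratios was not tested.

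Cycling mTECs had Icosl at a ratio of 1.76, Cd80 at 34.9 and 20.1 CPM, and Pdcd1lg2 at 12.9 and 4.04 CPM (98 and 33 UMIs, ratio 3.19, 2.13 to 4.89). Pdcd1lg2 was the 1 of 5 measured members past 2-fold, beside 3.14% of 11542 genes. It met the minimum of 50 UMIs only through the fl/fl-labelled library, and its log2 ratio of 1.46 became -0.27 at resolution 2. Its cycling levels also overlapped those of T-lineage cells in both libraries, so this ratio is not read further. In keratinocyte-like mTECs Cd80 was nearly level, at 29.6 and 26.0 CPM, while Cd274 stood at 75.7 and 40.0 CPM (1.89, 1.52 to 2.37). Pdcd1lg2 (100 and 4 UMIs, ratio 6.85, 2.59 to 25.6) and Cd86 (48 and 3 UMIs, ratio 4.38, 1.41 to 22.0) were the 2 of 6 members past 2-fold in that class, beside 6.16% of 11328 genes. Both met the minimum of 50 UMIs only through the fl/fl-labelled library. The Cd86 and Pdcd1lg2 levels of this class overlapped those of T-lineage cells in both libraries, so neither ratio is read further. Tuft mTECs, which share genes with the chemosensory tuft cells of mucosal epithelia, had Cd274 at 57.1 and 30.4 CPM (1.87, 1.64 to 2.14). This held in each tuft cluster, at 38.3 and 25.3 CPM in cluster 8 (116 and 774 cells), 56.1 and 33.6 CPM in cluster 11 and 62.6 and 37.6 CPM in cluster 13. Cd276 in tuft mTECs was lower in the fl/fl-labelled library, at 1.42 and 4.96 CPM (9 and 90 UMIs, ratio 0.286, 0.127 to 0.568), beside 2.38% of 12125 genes that were at least 2-fold lower. It met the minimum of 50 UMIs only through the +/fl-labelled library. Its tuft levels overlapped those of T-lineage cells in both libraries, so this ratio is not read further.

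Immature mTECs were the one compared class in which Cd274 was lower in the fl/fl-labelled library, at 118 against 151 CPM (0.779, 0.712 to 0.853). This direction did not hold under other definitions of the class, as its log2 ratio of -0.36 became 0.15 with a stricter cell filter, 0.32 with doublets kept and 0.61 with each library clustered apart. Pdcd1lg2 was higher in immature cells of the fl/fl-labelled library (126 and 30 UMIs, ratio 4.25, 2.84 to 6.57). It was the 1 of 4 measured members past 2-fold, beside 1.25% of 10997 genes. Pdcd1lg2 met the UMI minimum there only through the fl/fl-labelled library, and the count of members rests on this. Cd276 had 9 UMIs in fl/fl-labelled and 35 in +/fl-labelled immature cells, with a ratio of 0.260. Its levels there overlapped those of T-lineage cells in both libraries, so this ratio is not read further. Cd80 and Icosl were near background in this class and their ratios are not read.

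The genes around the B7 ligands were described by 6 lists of 51 genes, of which 48 had at least 50 UMIs over both libraries. Their counts stand beside 53.7% of all genes higher in the fl/fl-labelled library over all kept cells, and 55.6% within Aire-stage mTECs. Among receptors, 3 of 4 measured genes were higher and 1 lower in the fl/fl-labelled library over all kept cells, with Ctla4 at 4.45 and 0.435 CPM and Cd28 at 3.66 and 5.74 CPM, and the list's median log2 ratio was 0.51 beside 0.04 over all genes. Other B7-related genes had 3 of 4 higher (median 0.41), and Btnl2, a butyrophilin-like inhibitor of T cells, stood at 5.51 and 1.32 CPM. Ligands and receptors of the TNF, nectin and adhesion families had 7 of 11 higher (median 0.25), led by Cd70, the CD27 ligand, at 88.9 and 31.1 CPM, with Tnfsf9 at 62.4 and 33.3 CPM and Cd40 at 114 and 70.9 CPM. Genes past 2-fold over all 6 lists were Ctla4, Btnl2 and Cd70, which are 6.25% of the 48 measured, against 10.4% of all genes. Within Aire-stage mTECs they were Ctla4, Icos, Btnl2 and Rel, or 9.09% of 44 measured, against 14.4% of all genes. Over all kept cells Ctla4 met the minimum of 50 UMIs only through the fl/fl-labelled library. In Aire-stage mTECs so did Ctla4 (163 and 5 UMIs), Icos (120 and 10 UMIs) and Btnl2 (173 and 22 UMIs). T-lineage markers summed to 98.9 and 124 CPM in Aire-stage mTECs, where Ctla4 stood at 5.79 and 0.453 CPM and Icos at 4.26 and 0.905 CPM.

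The NF-kB list covers CD40, RANK and lymphotoxin beta receptor signalling upstream of mTEC maturation. In it 12 of 15 genes were higher and 3 lower (median 0.46), none of them by 2-fold. With TMM factors in place of total UMIs 11 of 15 were higher (median 0.36), beside 45.7% of all genes. Nfkbia, an inhibitor that NF-kB itself induces, stood at 1847 and 1041 CPM, Nfkb1 at 119 and 73.3 CPM and Map3k14, the kinase of the non-canonical pathway, at 32.7 and 21.4 CPM. Within Aire-stage mTECs 13 of 15 were higher (median 0.21, beside 0.06 over all genes). With TMM factors 9 of 15 were higher there (median 0.12), beside 48.3% of all genes (median -0.02). In total-UMI scaling Rel was past 2-fold at 106 and 47.4 CPM, and Map3k14 stood at 40.0 and 20.4 CPM. The interferon gamma list, whose pathway induces Cd274 in many cells, had 7 of 10 higher and 3 lower with a median of 0.05, near that of all genes, and 3 higher and 7 lower (median -0.05) when the libraries were scaled by TMM factors. In it Irf8 stood at 250 and 130 CPM and Ciita at 104 and 65.7 CPM, while Irf1 stood lower in the fl/fl-labelled library at 158 and 216 CPM. The list of PD-L1 trafficking and turnover had 1 of 4 higher (median -0.27), or 0 of 4 with TMM factors (median -0.37). In Aire-stage mTECs all 4 were lower in the fl/fl-labelled library, among them Cmtm6, which keeps PD-L1 at the cell surface, at 65.1 and 87.8 CPM.

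The genes whose level across 27 class-by-library sums was most like each member differed from member to member. For Cd80 they were Tmem19 (Pearson r = 0.927), Irf5 (0.915) and Dnase1l3 (0.904). For Cd86 they were Batf3, a transcription factor of conventional dendritic cells (0.917), Crispld2 (0.881) and Slamf7 (0.877), and for Icosl Med11 (0.886), Il4i1 (0.882) and Tvp23a (0.881). Cd274 was nearest to Rab30 (0.849), the class I gene H2-Q4 (0.848), whose reads may be shared with near-identical relatives, and Sqstm1 (0.827). Pdcd1lg2 was nearest to B2m, the light chain of class I molecules (0.862), Cacna1s (0.851) and Prg2 (0.834), and Cd276 to 2900009J06Rik (0.790), Ergic2 (0.783) and Hspb2 (0.768). The likeness to Aire was 0.810 for Icosl and 0.748 for Cd80, but 0.547 for Pdcd1lg2, 0.391 for Cd86, 0.251 for Cd276 and 0.018 for Cd274. Among members the closest pair was Cd80 and Icosl (0.774), and the neighbours Cd274 and Pdcd1lg2 reached 0.437. The sums share libraries and depth, and these values are descriptions of 18406 genes ranked with no test.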

How the data were processed

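Each library was deposited as a 10x matrix of UMI counts, and these counts per gene and cell, as deposited by the authors, are the only values used. Per the submitters' processing notes Cell Ranger and Seurat were used, and the matrix headers give software version 3.1.0. For the genome build and annotation behind the counts, the sources used here name none. The sort, the droplet capture and the 3' kit are per the labels' protocols.

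Kept cells (scanpy 1.11.5) had no fewer than 500 genes, no fewer than 1000 UMIs and a mitochondrial share up to 15%. The automatic doublet threshold of scanpy's Scrublet marked 0% and 0.0392% of cells, so it was judged not to have worked, and the highest scores were removed at 0.8% per 1000 cells (539 and 208 cells). Both libraries were clustered together by the Leiden method at resolution 1 without the 6 members, giving 20 clusters. Clusters were named from marker lists holding no member, and the share-of-list rule that assigns the names was chosen after the clusters were seen. Clusters failing it stayed unnamed. The epithelial set holds clusters with Epcam at 500 CPM or more, other than named non-epithelial ones.

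UMIs were summed per class and library, divided by the class total to give CPM, and compared as log2 of (CPM + 1). Genes needed at least 50 UMIs over both libraries, and classes 100 cells in each, to enter a comparison. A gene could meet this minimum through the library where it was high, as Cd86 did in Aire-stage mTECs (597 and 28 UMIs). Shares were read after thinning cells to 2000 UMIs, leaving out shallower cells (6881 of 7669 and 4568 of 4891 cells remained). No test was made, as each genotype has 1 library. Ratios and intervals were tested on simulated data with known folds. Those data held counting error only, which the intervals assume, so they cannot show variation between cells or libraries. Alternatives were another cell filter, doublets kept, other clusterings, TMM factors (edgeR 4.0.16, used for scaling only), mean per-cell CPM, a pseudocount of 5 CPM, other thinning depths and fixed cluster shares. The genes named are the 6 members, the members of 6 gene lists, and the 3 genes nearest to each member by Pearson r. The members and lists were chosen with earlier results of these data known.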

Additional observations from a re-analysis of the deposited data

Results flagged for a closer look

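Cd274 differed between classes in the direction of its ratio. The log2 ratio of the fl/fl-labelled over the +/fl-labelled library was 0.59 in Aire-stage mTECs, 0.85 in cycling mTECs, 0.88 in tuft mTECs, 0.90 in keratinocyte-like mTECs and 0.52 in dendritic cells, but -0.36 in immature mTECs. The difference between classes was not tested, since each class has 1 library per genotype. The immature value became 0.15, 0.32 and 0.61 under 3 other definitions of the class.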

How the results depend on the processing

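No paired analysis was possible because each genotype has 1 library. Over all kept cells every member kept its direction under the 6 alternatives. With TMM factors the log2 ratio was 1.23 for Cd80, 0.82 for Icosl and 0.50 for Cd274. With a pseudocount of 5 CPM it was 1.16 for Cd80, 0.83 for Cd86, 0.82 for Icosl and 1.27 for Pdcd1lg2. With the mean of per-cell CPM it was 1.0 for Icosl and 0.48 for Cd274. With the cluster shares of the +/fl-labelled library it was 0.56 for Cd80, 0.53 for Cd86, 0.44 for Icosl, 0.36 for Cd274 and 0.77 for Pdcd1lg2, and 0 members in place of 3 passed 2-fold.

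Counts of members past 2-fold in either direction, here over all 6 members whatever their UMI number, moved with the class definition. In Aire-stage mTECs the count of 1 became 4 when clustering left out Aire and the marker genes, 3 with the stricter cell filter, 4 with doublets kept, 4 with libraries clustered apart, 2 with per-cell means and 2 with cluster 9 added. In cycling mTECs the count of 1 became 2 at resolution 2, 3 with per-cell means and 0 with a pseudocount of 5 CPM. In immature mTECs 2 became 1 with that pseudocount and 3 with the stricter filter and with libraries apart. In tuft mTECs 1 became 2 with doublets kept, 3 with libraries apart, 2 with per-cell means and 0 with that pseudocount. In keratinocyte-like mTECs 2 became 4 without Aire and the marker genes, 4 with per-cell means and 1 with that pseudocount. At 1.5-fold the listed genes past the threshold were 11 higher and 1 lower in place of 3 and 0 over all kept cells, and 7 higher and 3 lower in place of 4 and 0 in Aire-stage mTECs.

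Signs turned in the following values. In Aire-stage mTECs, Pdcd1lg2 was at -0.31 in cluster 10 alone and -0.85 in cluster 15 alone, and Cd276 at 0.89 in cluster 15 alone; these cluster settings and the addition of cluster 9 were chosen after seeing the data. Pdcd1lg2 in cycling mTECs was at -0.27 at resolution 2. In immature mTECs, Icosl was at -0.13, -0.73 and -0.17, and Cd274 at 0.15, 0.32 and 0.61, with the stricter filter, doublets kept and libraries apart, and Cd86, on few UMIs, at -0.05 with the stricter filter. In keratinocyte-like mTECs, Cd80 was at -0.24 and Cd276 at -0.31 with per-cell means, in place of 0.18 and 0.09. The Cd274 difference with Aire was 13.9 and 10.0 percentage points without thinning, in place of -1.54 and -2.24. The Cd276 difference with Aire in the fl/fl-labelled library was 0.60 percentage points when thinned to 5000 UMIs and 4.26 without thinning, in place of -0.48. The cause was not tested. In dendritic cells no member reversed, and Pdcd1lg2 ranged from 1.14 to 1.59. Cd86 in Aire-stage mTECs ranged from 0.52 to 3.82. Allowing the members among the variable genes changed no value, as none of them was variable. Clustering the libraries apart gave no cycling, keratinocyte-like or dendritic class in the +/fl-labelled library, and settings that left under 100 cells in a class gave no value. Depth limits Cd276 throughout and Cd86 in mTECs of the +/fl-labelled library, where 59 UMIs are spread over 4371 cells.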
